A study of Sus scrofa with 2 samples.

Results

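Vascular smooth muscle cells of pig back muscle (longissimus dorsi) were chosen, in piglets of 2 breeds, as the cell barcodes that met a rule on their own transcripts. A barcode was selected if it had at least 500 genes detected, at least 2 unique molecular identifiers (UMIs, each a counted transcript) of the smooth muscle myosin heavy chain MYH11, and at least 50 UMIs per 10000 of ACTA2, TAGLN and MYL9 together. It also had to hold fewer than 2 UMIs of the endothelial genes PECAM1 and CLDN5 and fewer than 20 per 10000 of the fibroblast genes DCN and LUM. The rule found 665 of 25851 barcodes with enough genes. These were 102 of 11533 (0.884%, 95% exact binomial interval 0.722 to 1.07%) in the Guangdong small-eared spotted pig (GDSS) library and 563 of 14318 (3.93%, 3.62 to 4.26%) in the Yorkshire library.

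The study compared cells released from 1 g of this back muscle per piglet and depleted of red cells and of dead cells. The labels call this preparation intramuscular vascular stem cells and do not say how many piglets were used. The titles carry the mark P0, whose meaning is not given, and no age is stated. A single droplet library was made for GDSS and a single one for Yorkshire. The labels name no altered gene and no agent. Without a replicate nothing was tested, and a difference between breeds cannot be told apart from one between animals, preparations or libraries. The intervals given below cover counting error only.

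Smooth muscle cells form the contractile layer of arteries, arterioles and larger veins. Calcium entering through channels or released from the sarcoplasmic reticulum activates myosin light chain kinase, and myosin then pulls on actin filaments that are dressed with calponin, caldesmon and tropomyosin. Nitric oxide relaxes the cells through guanylate cyclase and the kinase PRKG1. Pericytes sit on capillaries, share several genes with smooth muscle, such as RGS5, NOTCH3 and PDGFRB, and carry little of the contractile apparatus. Smooth muscle cells can also lower their contractile genes and make more extracellular matrix, a state often called synthetic.

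The members summed to 375037 UMIs in GDSS and 1995934 in Yorkshire, with medians of 3280 and 3361 UMIs per cell and at most 9225 and 9932. The barcodes in neither this class nor the RGS5 class described below had medians of 2892 and 3033 UMIs. The median mitochondrial share of the members was 6.0% in GDSS and 7.4% in Yorkshire, against 4.11% and 4.05% in the other cells. By marker gates, fibro-adipogenic cells made up 27.9% and 6.89% of barcodes, satellite cells 3.37% and 27.5%, and endothelial cells 2.46% and 11.5%. A doublet score of 0.3 or more was given to 1 and 12 members. The libraries shared 43 barcodes, of which 1 was a Yorkshire member and 0 were GDSS members.

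Levels of 4 marker genes outside the rule are described first. They were chosen with earlier results of these data known, so high levels in the members are no check of the label. Levels are given as UMIs per 1000000 UMIs summed over a class of cells (CPM). MYLK, the myosin light chain kinase, stood at 765 CPM in GDSS members and 949 CPM in Yorkshire members, against 12.2 and 16.4 CPM in all other cells. TPM2, a tropomyosin of the thin filament, stood at 6434 and 6050 CPM against 60.9 and 129 CPM. ITIH4, a secreted inter-alpha-trypsin inhibitor heavy chain, was among the most abundant transcripts, at 7375 and 9196 CPM against 53.5 and 110 CPM. RERGL, a small GTPase-like gene, was at 323 and 390 CPM against 3.23 and 6.59 CPM. In both libraries these 4 markers were far above their level in these other cells, which leave out the RGS5 class described below. ITIH4 and RERGL were shared with that class, as given below. Because MYH11 and the other rule genes were used to pick the cells, their own levels are only a description: MYH11 was at 2669 and 2952 CPM, ACTA2 at 11090 and 9703 CPM, TAGLN at 11740 and 10627 CPM and MYL9 at 3469 and 2796 CPM.

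**Figure D1:**
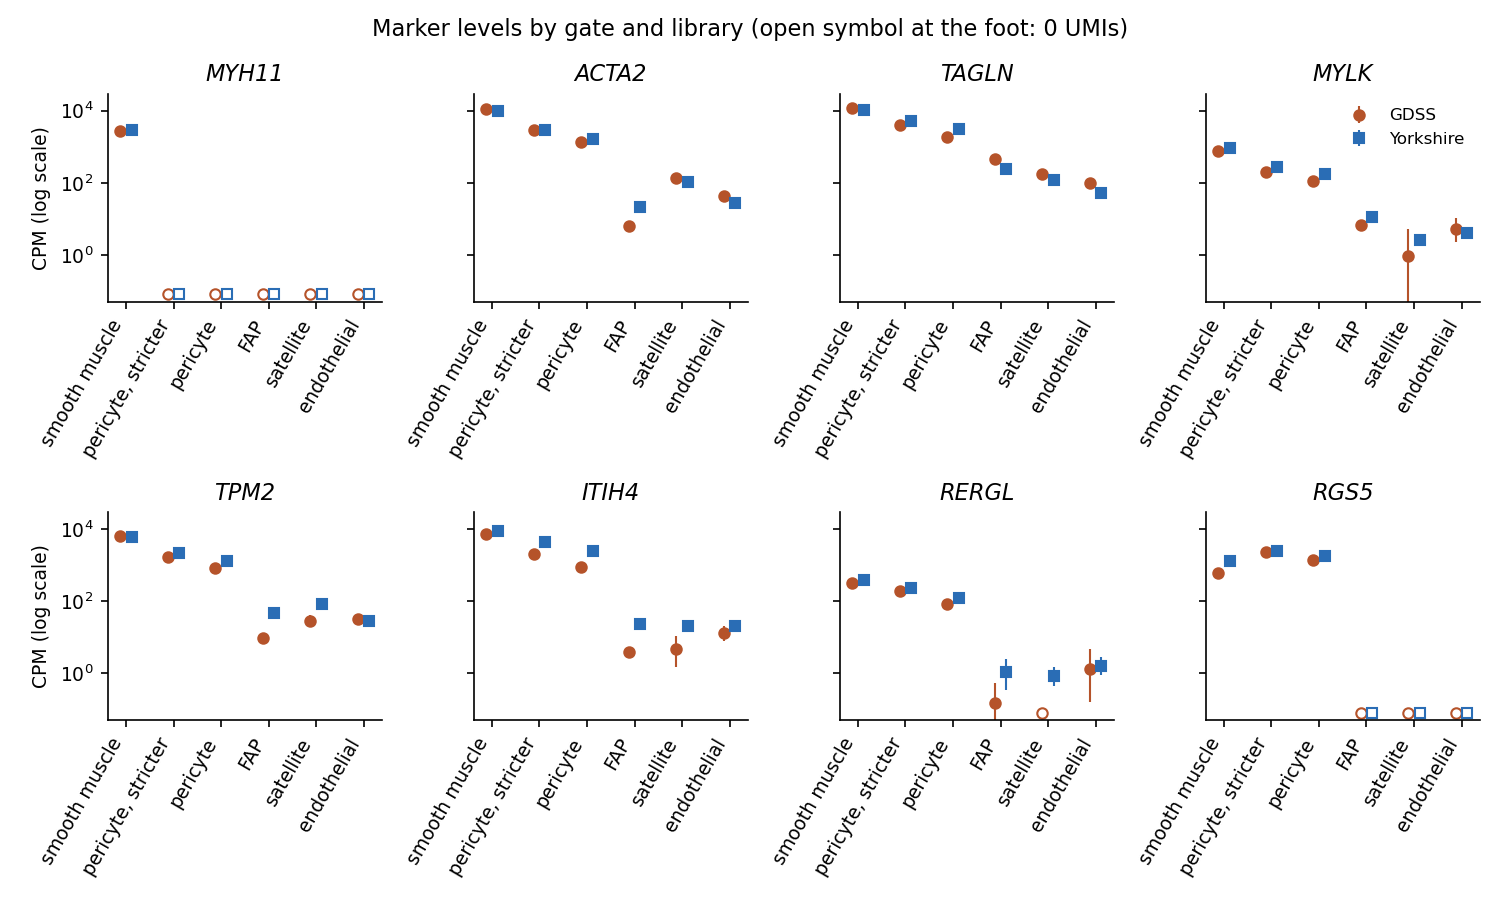
Levels of 8 genes in 6 classes of cells of each library, in CPM on a log axis, with exact Poisson 95% intervals as bars and an open symbol at the foot of the axis for a level of 0 UMIs. The smooth muscle class stands highest for ITIH4, at 7375 and 9196 CPM (GDSS, then Yorkshire).

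Shares of cells were compared after each cell was thinned to 1500 UMIs, which left out 7 GDSS and 29 Yorkshire members with fewer. ITIH4 was then detected in 88.4% (80.2 to 94.1%) of 95 GDSS members and 95.7% (93.6 to 97.3%) of 534 Yorkshire members. Without thinning the shares were 92.2% and 97.2%. The same gene was detected after thinning in 0.552% and 3.23% of fibro-adipogenic cells, a class that should lack it, whose median depths were 3574 and 4076 UMIs. RERGL was detected after thinning in 31.6% and 41.2% of members and in 0.0650% and 0.208% of fibro-adipogenic cells. CNN1, calponin, was detected in 47.4% and 36.5% of members against 0.13% and 0.208%, and without thinning in 64.7% and 57.4%. Calponin and RERGL were thus found in a part of the members only at this depth, while ITIH4 was found in nearly all. In the RGS5 class described below, ITIH4 was detected after thinning in 37.9% and 65.7% of cells and RERGL in 11.9% and 19.5%.

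Cells at the edge of the rule, on either side of it, held less ITIH4 and TPM2 than members with more MYH11 UMIs. RERGL was at 163 CPM with 2 MYH11 UMIs against 361 CPM with 3 or more in GDSS. In Yorkshire it was at 390 CPM in both. The 24 GDSS and 72 Yorkshire members with exactly 2 MYH11 UMIs held 4331 and 7179 CPM of ITIH4 and 2765 and 3712 CPM of TPM2. The 38 and 95 barcodes with a single MYH11 UMI that met all other conditions held 4544 and 5445 CPM of ITIH4 and 3578 and 3334 CPM of TPM2. The 78 and 491 members with 3 or more MYH11 UMIs held 8116 and 9446 CPM of ITIH4 and 7327 and 6340 CPM of TPM2. The edge of the class is therefore a point on a range, and cells just outside it carried smooth muscle genes.

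Markers of other cell types were summed in the members and in the other cells, leaving out the genes that the rule capped. Of 11 endothelial markers 8 had a UMI in GDSS (VWF, TEK and ERG at 0) and 10 in Yorkshire (TEK at 0), and without PECAM1 and CLDN5 they summed to 139 and 132 CPM, against 119 and 488 CPM in the other cells. Of 10 fibro-adipogenic markers 8 and 10 were detected, with PI16 and DPP4 at 0 in GDSS, and without DCN and LUM they summed to 2000.0 and 1158 CPM against 20320 and 7684 CPM. The sum over the 8 satellite cell markers was 339 and 299 CPM against 1184 and 1047 CPM, and that over the 10 myofibre markers 307 and 326 CPM against 413 and 1046 CPM. The 7 glial markers summed to 563 and 728 CPM against 702 and 1426 CPM, the 9 macrophage markers to 29.3 and 18.5 CPM against 791 and 379 CPM, and the 6 tenocyte markers to 16.0 and 9.02 CPM against 637 and 337 CPM. The endothelial sum was thus not below that of the other cells in GDSS, and the myofibre and glial sums there were only slightly below. Most of the endothelial sum in the members came from ESAM (38 and 228 UMIs) and most of the glial sum from ERBB3 (131 and 1021 UMIs). The satellite sum took in HEYL (42 and 152 UMIs), a Notch target gene given below as higher in the members. The fibro-adipogenic sum was the largest and was higher in the GDSS members, and its part in the results below was not tested.

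The first comparison set the members against all other cells of their own library, for the 10331 genes with enough UMIs. The RGS5 class described below, the nearest to the members, was not among these other cells. A gene was called when it differed at least 2-fold in the same direction in both libraries, which held for 8.24% of genes toward the members and 6.9% away from them. Since the rule used this contrast, the counts describe the class and nothing is read from them. Of the 20 contractile genes, 19 were at least 2-fold higher in the members and 0 were lower, and the median log2 ratios were 4.28 in GDSS and 4.01 in Yorkshire, against 0.03 and 0.14 over all genes. ACTG2, the gamma smooth muscle actin of gut and vessel, was at 624 CPM in GDSS members and 352 CPM in Yorkshire members, 181-fold and 155-fold above other cells. CNN1 was at 528 and 432 CPM, 106-fold and 76.0-fold above them, and LMOD1, leiomodin, which nucleates actin filaments, at 352 and 375 CPM. The gene not called was DES, the intermediate filament desmin that skeletal muscle shares, at 413 and 352 CPM against 42.2 and 202 CPM in the other cells. The direction was shared by the libraries for these genes, and the other cells held only a few CPM of ACTG2, CNN1 and LMOD1.

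The machinery that starts and stops contraction was also mostly higher in the members than in these other cells. Of 11 genes of calcium handling and ion transport, 10 were higher and 1 lower, with median log2 ratios of 3.64 and 3.07. KCNMB1, the beta subunit of the large-conductance potassium channel, gave 72.0 CPM (47.4 to 105) in GDSS members and 75.2 CPM (63.6 to 88.2) in Yorkshire members, against 0.227 and 0.399 CPM elsewhere. CASQ2, which holds calcium in the sarcoplasmic reticulum, gave 61.3 and 78.2 CPM against 0.428 and 1.70 CPM. RYR2, a calcium release channel known best from heart, gave 37.3 and 59.1 CPM against 0.882 and 1.46 CPM. All 3 were under 2 CPM in the remaining cells. KCNMB1 and CASQ2 had overlapping intervals in the libraries' members, and RYR2 was 1.58-fold higher in Yorkshire members, with an interval from 0.907 to 2.99 that takes in no difference.

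Among 16 genes of vasoactive signalling, 8 were higher and 2 lower. EDNRA, the endothelin receptor through which vessels constrict, was at 179 CPM in GDSS members and 290 CPM in Yorkshire members, 31.5-fold and 25.5-fold above other cells. GUCY1A1, a subunit of the nitric oxide receptor, was at 269 and 524 CPM, and PDE5A, which breaks down its product, at 85.3 and 130 CPM. AGTR1, the angiotensin receptor, went the other way, at 5.33 and 13.0 CPM against 275 and 96.8 CPM. NOTCH3, the receptor that maintains arterial smooth muscle, stood at 411 and 480 CPM, 23.5-fold and 11.4-fold above other cells. It is shared with the RGS5 class left out here. After thinning NOTCH3 was detected in 45.3% and 51.5% of members and in 21.7% and 30.9% of the RGS5 cells. The ligand gene JAG1 stood at 219 and 188 CPM and the target gene HEYL at 112 and 76.2 CPM, and 4 of 9 Notch pathway genes were higher in all.

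Adhesion and matrix genes separated. Of 21 basement membrane and integrin genes 8 were higher and 3 lower, among them ITGA7, a laminin receptor, at 539 and 781 CPM or 25.4-fold and 10.9-fold above other cells. Of 26 genes of elastic fibres and the vessel wall matrix 1 was higher, COL18A1, and 13 were lower, with median log2 ratios of -1.44 and -1.05. COL1A1, the fibrillar collagen chain, was at 627 and 356 CPM against 9139 and 4115 CPM in the other cells. ELN, elastin, had 1 UMI in GDSS members (2.67 CPM) and 26 in Yorkshire members (13.0 CPM), so that it was detected in 1 and 24 cells. MGP, matrix Gla protein, a calcification inhibitor, was at 15441 and 11426 CPM, against 19539 CPM in the other GDSS cells and 4260 CPM in the other Yorkshire cells. The matrix genes, low as a group, were thus topped by a single very abundant member whose comparison with other cells went opposite ways in the libraries.

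Energy metabolism formed another group. Of 17 genes of oxidative phosphorylation 8 were higher and 0 lower, with median log2 ratios of 1.16 and 1.21. COX7A1, the muscle form of a cytochrome oxidase subunit, was at 261 and 376 CPM, 6.56-fold and 5.24-fold above other cells. NDUFA4L2, a hypoxia-associated relative of NDUFA4, was at 173 and 153 CPM, 18.2-fold and 30.1-fold above them. Of 17 stress and immediate early genes 0 were higher and 3 lower. None of the 7 cell cycle genes was called in either direction. The share of called genes with the higher level in the members was 54.4%, but 38.0% after trimmed-mean scaling (601 higher, 982 lower).

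The nearest class to the members was the set of cells with at least 2 RGS5 UMIs and no MYH11 UMI, 311 in GDSS and 431 in Yorkshire. Of these, 66 (21.2%) and 100 (23.2%) held at least 2 endothelial UMIs, and 65 (20.9%) and 24 (5.57%) held 20 or more per 10000 of DCN and LUM. Their deepest barcodes had 50030 and 44456 UMIs. The members could hold neither by rule, so the comparison was also made with the 188 and 312 of these cells that met the same limits, whose median depths were 1693 and 2413 UMIs. Against the full set, 4.84% of 2375 genes were at least 2-fold higher in the members and 7.16% lower. Against the stricter set, which the values below use, the shares were 4.25% and 2.83% of 1060 genes. The rule used MYH11 in both, so these counts too are only a description.

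**Figure D2:**
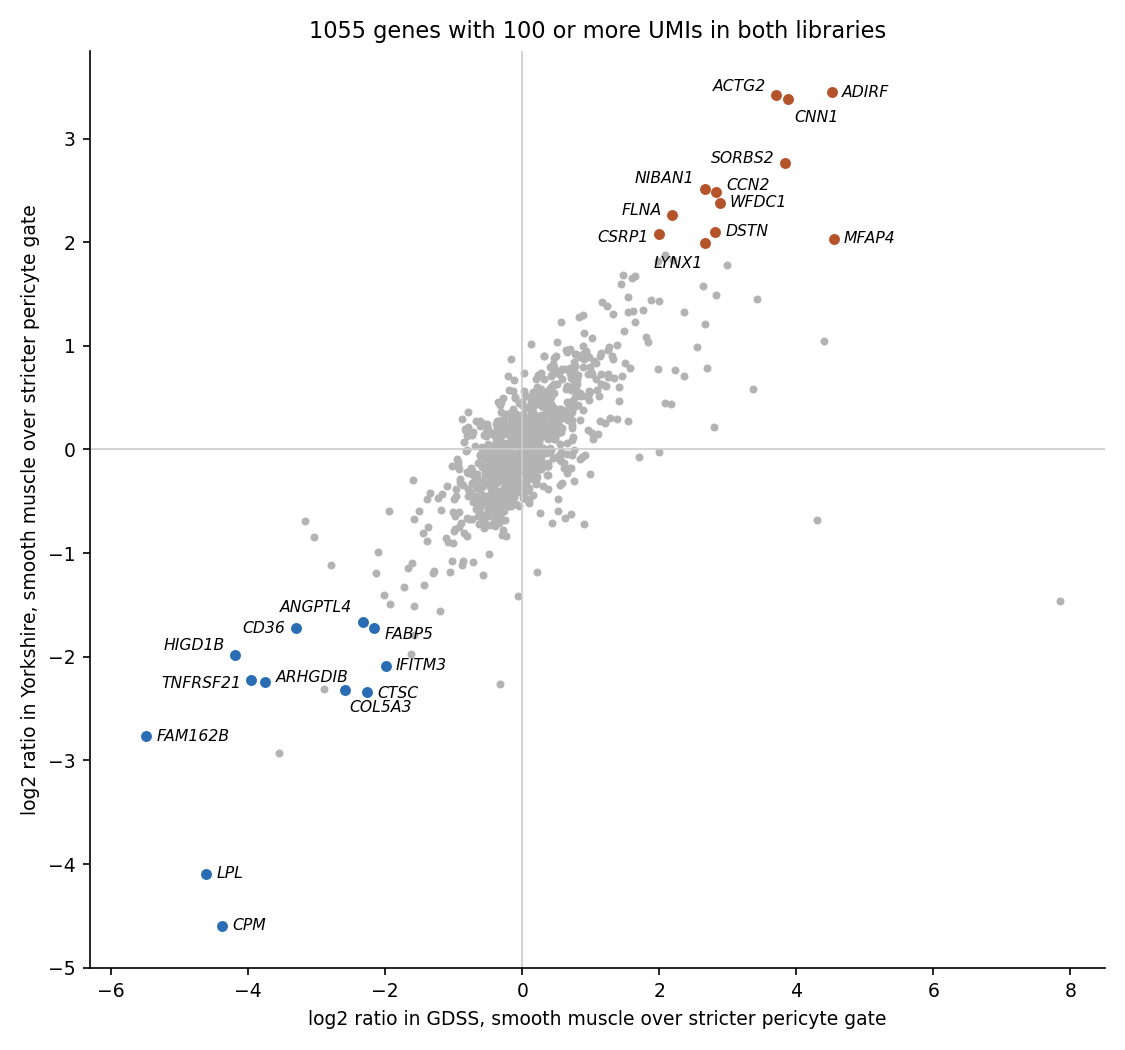
Log2 ratio of smooth muscle cells to the stricter RGS5 cells without MYH11 for 1055 genes, in GDSS on the x axis and Yorkshire on the y axis, with the named higher and lower genes coloured. ACTG2, CNN1 and ADIRF lie at the upper right, and LPL, HIGD1B and CD36 at the lower left.

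Of 18 contractile genes measured in this comparison 11 were higher in the members and 0 lower, with median log2 ratios of 1.60 and 1.41, against -0.04 and -0.03 over all genes. CNN1 was at 528 CPM against 35.9 CPM in GDSS and 432 CPM against 41.6 CPM in Yorkshire, ratios of 14.7 (8.71 to 26.8) and 10.4 (7.51 to 14.8). ACTG2 was 13.0-fold and 10.7-fold higher, SORBS2, an adaptor of stress fibres, 14.3-fold and 6.77-fold, and FLNA, the actin crosslinker filamin A, 4.56-fold and 4.80-fold. MYLK was 3.95-fold and 3.52-fold higher and TPM2 3.69-fold and 2.72-fold. By contrast VCL, vinculin, gave ratios of 1.01 and 1.14, and PPP1R14A, an inhibitor of myosin phosphatase, stood at 403 against 390 CPM and 484 against 425 CPM. SMTN, smoothelin, was at 315 against 368 CPM and 317 against 250 CPM. The 2 classes therefore differed by more than 10-fold in calponin and gamma actin and by less than 1.5-fold in vinculin and the phosphatase inhibitor.

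Markers of arterial smooth muscle followed, 4 of 6 being higher and 0 lower, with medians of 1.82 and 1.06. ADIRF, a small nuclear protein known from adipocytes, was at 2242 CPM against 98.1 CPM in GDSS and 3447 CPM against 317 CPM in Yorkshire, ratios of 22.9 (16.7 to 32.1) and 10.9 (9.68 to 12.3). NET1, an exchange factor for RhoA, was 4.22-fold and 3.68-fold higher. ITIH4 was at 2062 and 4483 CPM in the stricter RGS5 cells, so the members exceeded them 3.58-fold and 2.05-fold only. RERGL was at 199 and 227 CPM there, 1.62-fold and 1.72-fold below the members. ITIH4 and RERGL were thus shared with the RGS5 cells, and ADIRF far less so. ADIRF was not confined to these classes. After thinning it was detected in 3.84% and 17.3% of satellite cells, against 0.295% and 2.56% for ITIH4.

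Of 11 wall matrix genes measured, 3 were higher in the members and 0 lower. MFAP4, a microfibril-associated protein, was 23.3-fold (13.1 to 45.7) higher in GDSS and 4.09-fold (3.17 to 5.36) higher in Yorkshire. FN1, fibronectin, was 6.33-fold and 2.31-fold higher, and MGP 2.92-fold and 2.78-fold. CCN2, a secreted matricellular protein, was at 525 against 74.2 CPM and 258 against 46.0 CPM. COL1A1 was 4.52-fold higher in GDSS but 1.35-fold in Yorkshire, and it was lower in the members than in the full set of RGS5 cells.

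On the other side stood lipid genes and pericyte genes. Of 6 lipid genes measured 0 were higher and 3 lower in the members, with median log2 ratios of -1.27 and -1.12. LPL, lipoprotein lipase, was at 48.0 CPM in GDSS members against 1172 CPM in the stricter RGS5 cells, and at 30.1 CPM against 514 CPM in Yorkshire. CD36, the fatty acid transporter, was at 171 against 1689 CPM and 274 against 905 CPM, and FABP5, a fatty acid carrier, at 285 against 1275 CPM and 94.2 against 311 CPM. Of 6 pericyte markers 2 were lower and 0 higher. HIGD1B, a mitochondrial protein of pericytes, was at 18.7 against 340 CPM and 76.2 against 300 CPM. NDUFA4L2 was at 173 against 699 CPM and 153 against 406 CPM. The carboxypeptidase M gene (symbol CPM) was at 13.3 against 278 CPM and 12.5 against 303 CPM. The 16 stress genes measured held 0 called in either direction, with medians of 0.05 and -0.02.

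The members were not uniform. In UMIs per 10000 of a cell, ITIH4 had a median of 76.4 in GDSS and 88.5 in Yorkshire, with 10th percentiles of 5.45 and 20.8. RGS5 had a median of 0 in GDSS and 8.44 in Yorkshire. ACTG2 was at 0 in 60 of 102 and 355 of 563 members, CNN1 in 36 and 240, and CCL19 in 83 and 526. The 10 members with most CCL19 held 78.6% of its UMIs in GDSS and 51.8% in Yorkshire. For ACTG2 the 10 highest held 68.0% and 32.2%, and for ITIH4 25% and 5.52%. ITIH4 was thus spread over nearly all cells, ACTG2 was found in fewer than 50% of them, and CCL19 came from few.

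**Figure D3:**
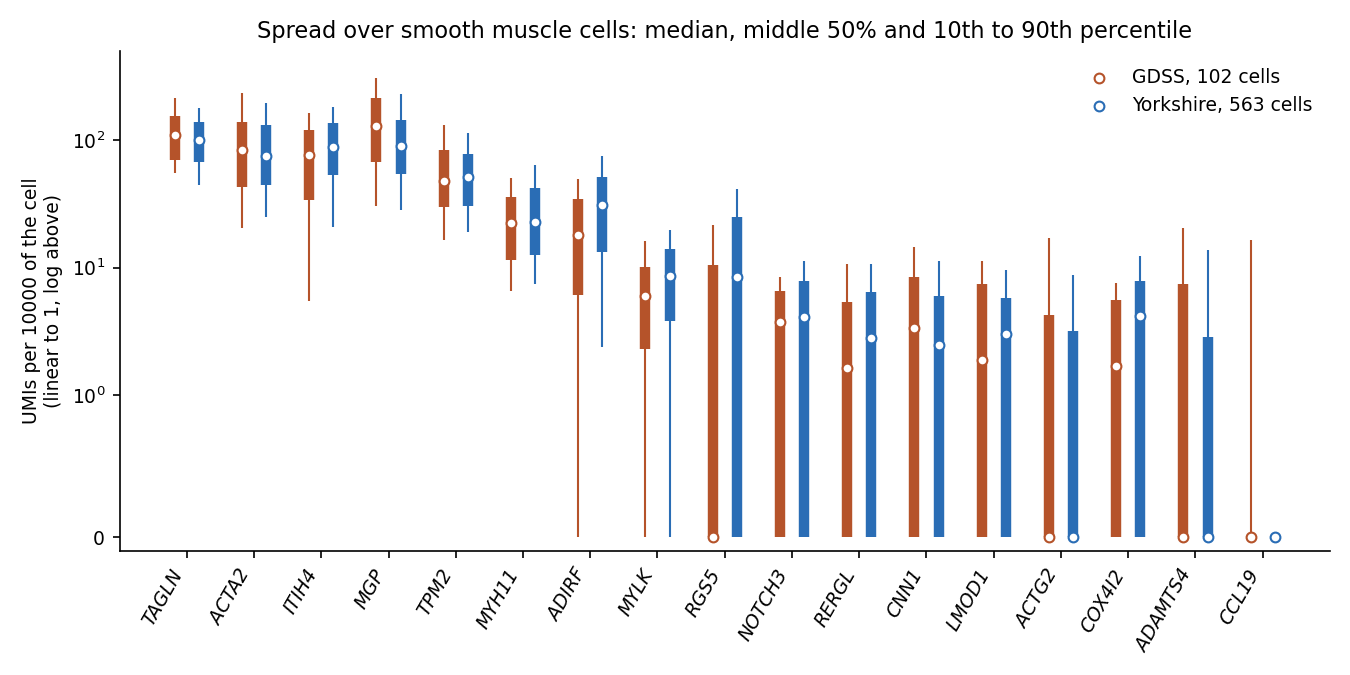
UMIs per 10000 in single smooth muscle cells for 17 genes, as the median, the 25th to 75th and the 10th to 90th percentiles over 102 GDSS and 563 Yorkshire cells. ITIH4 is above 0 in nearly all cells, with medians of 76.4 and 88.5, whereas ACTG2 and CCL19 have medians of 0 in both libraries.

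Splitting the members by RGS5, a regulator that shortens G protein signalling, gave 38 GDSS (37.3%, 27.9 to 47.4%) and 333 Yorkshire members (59.1%, 55.0 to 63.2%) with at least 2 UMIs, and 53 and 177 with 0. Their median depths were close, 3422 and 3207 UMIs with RGS5 and 3289 and 3558 without. Of 434 genes with enough UMIs, 1.15% were at least 2-fold higher in both libraries in the RGS5 members, counting RGS5 itself, and 4.84% lower. The higher genes besides RGS5 were DENND2C, NUPR1, PDGFRB and CYSLTR2. PDGFRB, the platelet-derived growth factor receptor of mural cells, was at 586 CPM against 264 CPM in GDSS and 451 CPM against 213 CPM in Yorkshire.

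Of 15 contractile genes outside the rule, 5 were lower in the RGS5 members and 0 higher, with medians of -1.20 and -0.74 against -0.03 and -0.02 over all genes. CNN1 was at 174 CPM with RGS5 against 797 CPM without it in GDSS, and at 229 CPM against 821 CPM in Yorkshire. ACTG2 was at 79.5 against 1076 CPM and 156 against 729 CPM. DES was at 224 against 587 CPM and 251 against 545 CPM, SORBS2 at 181 against 636 CPM and 247 against 543 CPM, and CSRP1, a LIM protein of the cytoskeleton, at 644 against 2186 CPM and 683 against 1678 CPM. Of 11 wall matrix genes 4 were lower and 0 higher. They were MFAP4, FN1, COL1A1 and COL1A2, and COL1A1 was at 79.5 against 875 CPM and 153 against 707 CPM. In contrast, ITIH4 was at 6523 against 8040 CPM in GDSS and 9622 against 8284 CPM in Yorkshire, and ADIRF was at 2126 against 2406 CPM and 3343 against 3444 CPM. The arterial markers ITIH4 and ADIRF thus differed little with RGS5 while calponin and gamma actin were several-fold lower in both libraries. NET1 and BCAM, also on the arterial list, differed more with RGS5 than ADIRF, ranked by the library nearer 1-fold. The CCL19 set described below, 16 GDSS and 33 Yorkshire cells, held 0 of the RGS5 members. It had more FN1, COL1A1 and ACTG2 than members without CCL19. The part of the CCL19 set in the lower matrix and gamma actin levels with RGS5 was not tested.

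**Figure D4:**
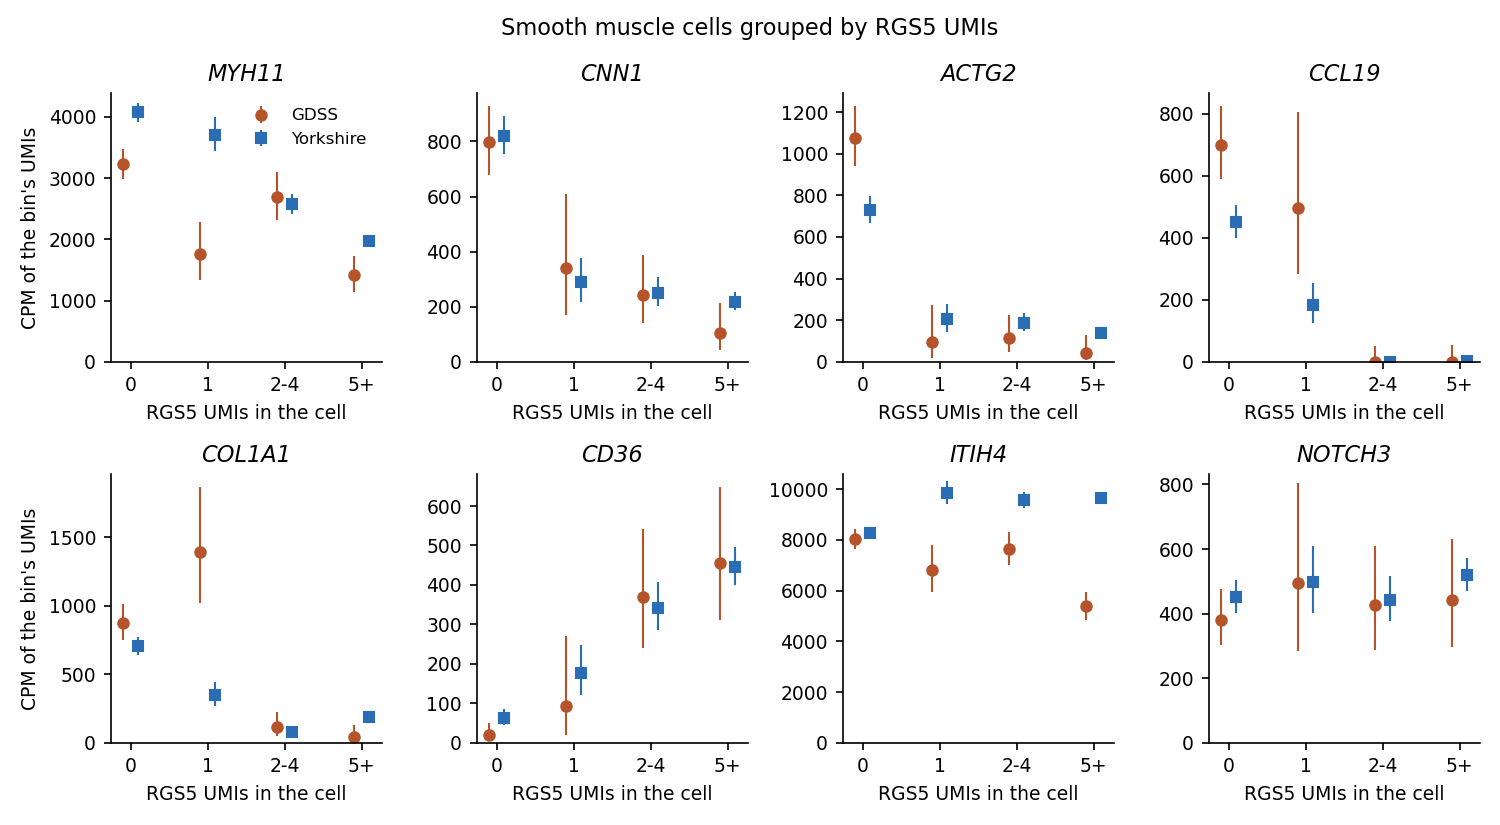
Level of 8 genes in CPM in members with 0, 1, 2 to 4 and 5 or more RGS5 UMIs, for each library. CNN1 goes from 797 down to 103 CPM in GDSS and from 821 down to 219 CPM in Yorkshire, while CD36 runs from 19.6 to 456 CPM and from 63.0 to 446 CPM.

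Levels were also taken in finer steps of RGS5. Members with 0, 1, 2 to 4 and 5 or more RGS5 UMIs numbered 53, 11, 22 and 16 in GDSS and 177, 53, 110 and 223 in Yorkshire. CD36 was at 19.6, 92.9, 370 and 456 CPM in GDSS and at 63.0, 177, 343 and 446 CPM in Yorkshire. CNN1 went the other way, with 797, 341, 242 and 103 CPM and 821, 289, 250 and 219 CPM. DES ran unevenly in GDSS, at 587, 124, 85.3 and 368 CPM, and was at 545, 284, 316 and 219 CPM in Yorkshire. COL1A1 was at 876, 1394, 114 and 44.2 CPM in GDSS and at 707, 348, 79.1 and 190 CPM in Yorkshire. CD36 thus rose and CNN1 fell at each step in both libraries, and DES and COL1A1 did not keep to a single direction. In Yorkshire the fall of CNN1 lay mainly between 0 and 1 RGS5 UMIs. Its intervals at the later steps overlapped, at 217 to 378, 203 to 306 and 187 to 255 CPM. In GDSS the later CNN1 levels rested on 11, 17 and 7 UMIs, and neighbouring intervals overlapped. NOTCH3 stayed between 382 and 496 CPM in GDSS and between 443 and 520 CPM in Yorkshire.

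A smaller set was picked out by CCL19, a chemokine that attracts lymphocytes and dendritic cells. It was chosen after its values were seen, so no gene is counted in it. At least 2 UMIs were found in 16 GDSS members (15.7%, 9.24 to 24.2%) and 33 Yorkshire members (5.86%, 4.07 to 8.13%), and 0 of these in either library had 2 or more RGS5 UMIs. Their median depths were 4214 and 4340 UMIs, against 3093 and 3278 UMIs in members without CCL19. FN1 was at 1392 CPM in the CCL19 members against 89.2 CPM in GDSS, and at 1497 CPM against 39.0 CPM in Yorkshire. COL1A1 was at 1870 against 343 CPM and 1890 against 213 CPM, and the chemokine CCL2 at 3397 against 477 CPM and 1896 against 338 CPM. ACTG2 was also higher, at 1631 against 357 CPM and 867 against 309 CPM. ITIH4 was at 1915 against 8465 CPM and 967 against 9942 CPM, and ADIRF at 479 against 2674 CPM and 87.3 against 3755 CPM. Of the fibro-adipogenic markers, FBN1, fibrillin, was also higher, at 59.9 against 10.3 CPM and 81.1 against 19.8 CPM, as was COL1A1 above. FBN1 rested on 4 and 13 UMIs in the CCL19 members. MFAP5, another of these markers, went the other way, at 29.9 against 44.6 CPM and 6.24 against 14.3 CPM. It had 2 and 1 UMIs in the CCL19 members. PDGFRA, PI16 and DPP4 had 0 UMIs in the CCL19 members, but at most 5 UMIs each in the members without CCL19, and DCN and LUM were capped by the rule. The part of fibroblast RNA in this set was not tested. In both libraries this set therefore held more matrix and gamma actin transcripts and less ITIH4 and ADIRF than members without CCL19. Its cells were also deeper. The members without CCL19 included members with RGS5, which held less ACTG2 and COL1A1. In members with 0 RGS5 UMIs, which held most of the CCL19 UMIs, ACTG2 was at 1076 and 729 CPM and COL1A1 at 875 and 707 CPM. ITIH4 was at 8040 and 8284 CPM there. The part of RGS5 in the contrast was not tested.

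The libraries of the breeds were then compared within the members. Of 3331 genes with enough UMIs, 8.53% were 1.5-fold or more higher in GDSS and 20.7% in Yorkshire, and the median log2 ratio (GDSS over Yorkshire) over all genes was -0.13. The split between directions moved with the scaling: 29.2% of called genes were higher in GDSS as reported, 37.5% after trimmed-mean scaling and 44.8% after median-of-ratios scaling. The counts below are read against these shares.

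The contractile genes had a median log2 ratio of -0.05, with 2 of 20 genes higher in GDSS and 4 in the other library. CALD1, caldesmon, was 1.68-fold higher in Yorkshire, and PDLIM3, an actin-associated LIM protein, 2.58-fold. ACTG2 was 1.77-fold higher in GDSS, but among members with at least 2 RGS5 UMIs its log2 ratio was -0.97, and among members without RGS5 it was 0.56. The 8 arterial markers had a median of -0.33, and 0 were higher in GDSS and 2 in Yorkshire. Contractile genes as a group were close to level between the libraries.

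Genes of the nitric oxide and cyclic nucleotide pathway were lower in the GDSS members. Of 9 vasoactive signalling genes 0 were higher in GDSS members and 7 in Yorkshire ones, and the median was -0.70. GUCY1A1 was at 269 CPM in GDSS members against 524 CPM, 1.95-fold higher in Yorkshire (1.59 to 2.41), and PRKG1, the kinase that mediates relaxation, differed 2.38-fold. PDE1A differed 2.20-fold, PDE3A 1.73-fold and PDE5A 1.53-fold. Of 11 ion channel and calcium genes 0 were higher in GDSS and 4 higher in Yorkshire. ATP2A2, the calcium pump of the sarcoplasmic reticulum, was at 160 CPM in GDSS members against 451 CPM, 2.82-fold higher in Yorkshire (2.17 to 3.72). The vasoactive list stood far from the median of all genes, and the channel list, at -0.10, did not.

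Regulators and adhesion genes included large ratios on few UMIs. MYOCD, the coactivator of smooth muscle genes, was at 13.3 CPM in GDSS members against 63.6 CPM, 4.77-fold higher in Yorkshire (1.99 to 15.0), from 5 and 113 cells. ITGA8, the alpha-8 integrin, was at 32.0 and 163 CPM, 5.09-fold higher in Yorkshire (2.87 to 9.95), from 12 and 227 cells. SOX13, a transcription factor, was 8.64-fold higher (3.32 to 32.1), from 3 and 134 cells, and PPARGC1A, a coactivator of mitochondrial genes, 4.51-fold. ACTC1, the cardiac actin, gave 1 UMI in GDSS and 128 in Yorkshire, a ratio of 24.1 with an interval from 4.24 to 957, and its Yorkshire UMIs came from 16 cells, 62 of them from a single cell. RGS5 was 2.18-fold higher in the Yorkshire members. Of 8 pericyte markers 3 were higher in Yorkshire and 0 in GDSS.

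The genes higher in the GDSS members included several of the stress, cytokine and matrix lists. Of 17 stress and immediate early genes 10 were higher in GDSS members and 0 in Yorkshire ones, and the median log2 ratio was 0.63. DNAJB1, a heat shock co-chaperone, was 2.67-fold higher, CRYAB 2.13-fold and HSPB1 2.09-fold. Summed over the list, the other cells had the same order, with 41050 and 31130 CPM (GDSS, then Yorkshire), against 35710 and 23310 CPM in the members. The sum was thus higher in GDSS in the members and in the pooled other cells, whose mix of classes differed between the libraries, and the part this had in the other differences was not tested.

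Of 5 cytokine genes 4 were higher in GDSS and 0 in Yorkshire: IL6, CCL19, CCL2 and CSF1. All rested on few GDSS cells. The 10 highest cells held 78.6% of CCL19, 86.6% of CCL2 and 84% of CSF1 UMIs in GDSS. In Yorkshire they held 51.8%, 31.2% and 32.9%. The log2 ratio of CCL2, 1.08, fell as low as 0.26 among the alternatives. IL6, a cytokine of acute inflammation, was at 552 CPM in GDSS members against 44.1 CPM, a ratio of 12.5 (9.71 to 16.3), but its 207 and 88 UMIs came from 7 and 12 cells, and a single cell held 143 of the former and another 54 of the latter. IGFBP2, a binding protein of insulin-like growth factors, was at 304 and 49.1 CPM, 6.19-fold higher (4.68 to 8.19), from 29 and 47 cells. Of 15 wall matrix genes 7 were higher in GDSS members and 1 in Yorkshire ones, and the median was 0.54. MFAP4 was 2.26-fold higher, FN1 2.02-fold and COL1A1 1.76-fold. Among members without RGS5 the log2 ratio of FN1 was 0.33, under the 1.5-fold limit, that of COL1A1 was 0.31 and that of MFAP4 0.60. Among members with at least 2 RGS5 UMIs COL1A1 turned, with a log2 ratio of -0.94. All 3 fibro-adipogenic markers with enough UMIs, COL1A1, COL3A1 and OGN, which are also on the matrix list, were higher in GDSS. Of the defining ones, DCN was at 66.7 CPM in GDSS members against 35.6 CPM, and PDGFRA had 2 UMIs in each library. Their part in the matrix difference was not tested. SPARCL1 was 1.97-fold higher in Yorkshire. The interval of IL6 covers counting only and says nothing of the few cells it came from.

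**Figure D5:**
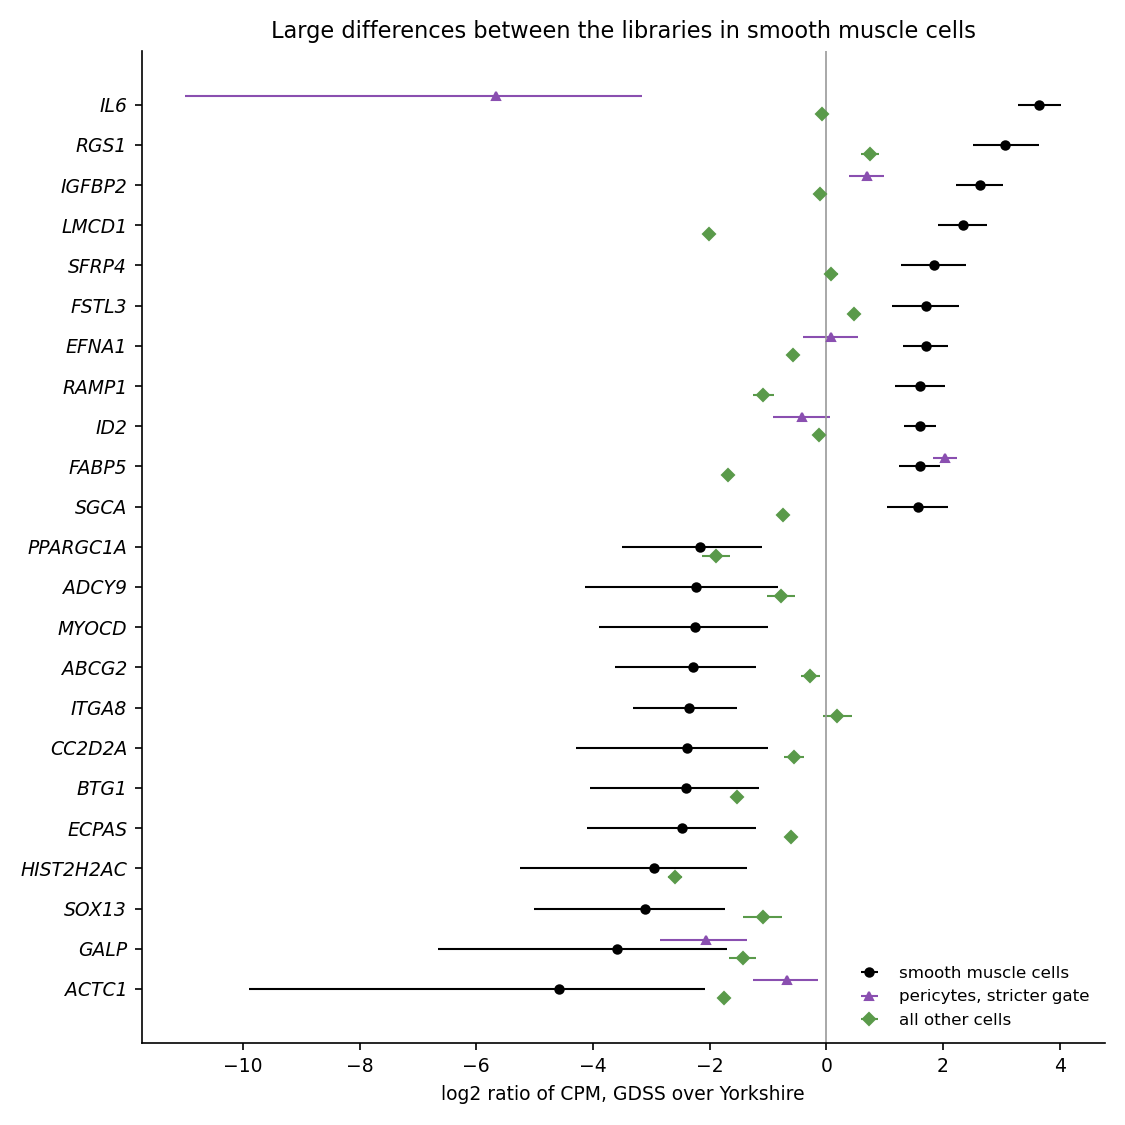
Log2 ratio of GDSS to Yorkshire with counting intervals for 23 genes, in smooth muscle cells, the stricter RGS5 cells without MYH11 and all other cells. A class with too few UMIs of a gene has no symbol, and IL6 lies at 3.65 in smooth muscle cells and at -5.67 in the RGS5 cells.

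Growth factor genes were mixed. Of 14 genes of platelet-derived growth factor and transforming growth factor signalling 7 were higher in GDSS members and 3 in Yorkshire ones, and the median was 0.50. ID2, an inhibitor of differentiation factors, was 3.04-fold higher in GDSS. Of 18 basement membrane and integrin genes 0 were higher in GDSS members and 5 in Yorkshire ones, and the median was -0.29. Of 17 oxidative phosphorylation genes 1 was higher in GDSS, CYCS, cytochrome c, at 2.82-fold, and 4 in Yorkshire.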

How the data were processed

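Single-cell suspensions from longissimus dorsi were sequenced on the 10x platform, 1 library per breed. The deposited matrices hold UMI counts. Cell Ranger and R 3.5.2 are listed, without roles, in the submitters' processing notes, and 3.1.0 is the software version per the file headers. The genome build was not given in the sources used here. No count was normalized by the authors, per the file headers and the whole-number values. The matrices hold 21301 features, of which 14846 have a symbol in the files and 680 were named from the reference table.

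The members and gene lists were chosen with earlier results of these data known. Barcodes with at least 500 genes entered the gates, and the UMIs of a gene in all cells of a class were added up and divided by the class total (CPM). Counts have exact Poisson intervals, ratios exact conditional binomial intervals and shares exact Clopper-Pearson intervals, all at 95%. A gene entered a comparison at 100 UMIs or more over both sums, in each library where libraries were kept apart. A level with no UMI at all was set at 3 UMIs for a bound, and any UMIs counted were used as they were. Named genes were the 12 with the largest ratio in each direction among those at 50 CPM or more in the higher class, plus the contractile genes, the cell type markers and up to 4 of each other list. Genes of the ribosome, the mitochondrial genome, haemoglobin, the sex chromosomes (XIST and Y) and the SLA complex were left out, as were the 8 genes of the rule. Some further list members, and members of the RGS5 split, were named as examples after their values were seen. A gene picked for naming in this way is not reported here. Shares of cells were thinned to 1500 UMIs (1000 as an alternative). Doublet scores came from Scrublet in scanpy 1.11.5, and no cell was removed on them. Trimmed-mean scaling used edgeR 4.0.16 in R 4.3.3. Other steps used Python 3.11.15, numpy 2.4.6, scipy 1.17.1 and pandas 2.3.3. The calculations were tested on simulated data. The splits by CCL19 and ADAMTS4 and the 4 alternatives on RGS5, CCL19 and IL6 were chosen after values were seen. Further alternatives changed the MYH11 and contractile limits, removed cells with over 10% mitochondrial UMIs, and changed the UMI minimum.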

Additional observations from a re-analysis of the deposited data

Results flagged for a closer look

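Among the genes named between breeds, 5 passed the fold limit in opposite directions in the smooth muscle cells and the stricter RGS5 cells. The named genes were picked for large ratios or from the lists, so 5 is not a count over all genes. The difference between the classes of cells was not tested. As log2 ratios of GDSS over Yorkshire, CCL19 gave 1.33 in smooth muscle cells and -3.65 in the RGS5 cells. CD36 gave -0.68 and 0.90. COL1A1 gave 0.81 and -0.92. Among the smooth muscle cells with at least 2 RGS5 UMIs the values became 0.0002534 for CD36 and -0.94 for COL1A1, so neither was then opposite to the RGS5 cells. IGFBP5, a binding protein of insulin-like growth factors, gave 1.15 and -1.43. IL6 gave 3.65 and -5.67, the latter from 1 UMI in GDSS against 111 in Yorkshire, with an interval from -10.98 to -3.16.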

How the results depend on the processing

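No paired analysis was possible because each breed has 1 library and no replicate. The share of members was 1.21% in GDSS and 4.596% in Yorkshire with 1 or more MYH11 UMIs, 0.607% and 3.04% with 4 or more, and in Yorkshire 3.02% without cells over 10% mitochondrial UMIs, 3.39% with the contractile limit at 100 per 10000 and 3.17% with no UMI of another class. Between breeds, 141 genes were higher in GDSS and 250 in Yorkshire after thinning, 931 and 2329 at a minimum of 20 UMIs, 74 and 82 at 500 UMIs, and 130 and 184 among members without RGS5. Among members with at least 2 RGS5 UMIs 385 were higher in Yorkshire. Against RGS5 cells, 28 were higher and 41 lower after thinning, 342 and 522 at 20 UMIs, 21 and 43 at 500 UMIs, and 45 and 30 with the stricter set. Against all other cells, 465 were lower after thinning and 412 higher at 500 UMIs. By RGS5, 8 genes were higher without high mitochondrial cells, 9 with 1 MYH11 UMI, 3 by mean CPM, 0 after thinning (6 lower), 31 at 20 UMIs (61 lower) and 0 at 500 UMIs (4 lower). RERGL was found in 52.0% and 60.2% of members without thinning and in 29.1% of Yorkshire members at 1000 UMIs. CNN1 was found in 64.7% and 57.4% without thinning and in 36.3% and 28.2% at 1000 UMIs. ACTG2 was found in 36.9% of Yorkshire members without thinning and in 18.6% and 16.9% at 1000 UMIs. Log2 ratios between breeds changed sign among members with at least 2 RGS5 UMIs for ACTG2 (-0.97), COL1A1 (-0.94), CD36 (0.0002534) and MYLPF (0.11), among members without RGS5 for S100A6 (-0.23) and TIMP1 (-0.34), and without CCL19 members for APOE (0.19). COL1A1 against RGS5 cells became 0.44 with the stricter set. Beyond the lower gene numbers of a higher UMI minimum and of thinning, the cause was not tested.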

Other observations

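A further set of members was found by ADAMTS4, a protease that cuts large proteoglycans, again after values were seen. At least 2 UMIs were present in 32 GDSS members (31.4%) and 120 Yorkshire members (21.3%), with median depths of 4292 and 3707 UMIs, against 2907 and 3144 UMIs in members without it. CCL2 was at 1967 CPM in these against 299 CPM in GDSS, and at 1196 CPM against 181 CPM in Yorkshire. ACTG2 was at 296 against 922 CPM and 142 against 436 CPM, and LMOD1 at 181 against 463 CPM and 219 against 440 CPM. Of the ADAMTS4 members, 16 in GDSS (50%) and 86 in Yorkshire (71.7%) also had at least 2 RGS5 UMIs. Among all members these shares were 37.3% and 59.1%. Members with RGS5 held less ACTG2, as given above. In each library 7 of the ADAMTS4 members had at least 2 CCL19 UMIs. The part of either overlap in these contrasts was not tested.

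The genes whose levels over the 6 classes of each library, 12 points in all, ran most like those of MYH11 were GLDN (Pearson correlation 0.972), KCNMB1 (0.936), MYL4 (0.925), SRL (0.919) and KANK1 (0.909). The rule sets MYH11 at or near 0 outside the members, and the classes of a library share its depth and free RNA, so these values are a description. GLDN, gliomedin, stood at 117 CPM in GDSS members and 57.6 CPM in Yorkshire members. MYL4, a myosin light chain known from atrial muscle, stood at 21.3 and 55.1 CPM.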
